A study of Mus musculus with 8 samples.

Results

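The genes described here make cholesterol and fatty acids, regulate that synthesis, take up lipoprotein lipid, or carry out the export programme of the liver X receptors (LXR). They were chosen by name as 38 genes of these pathways, and all 38 were found among the 23337 genes of the table, Msmo1 under its older symbol Sc4mol. The RNA came from mouse embryos harvested whole at E15.5 (days of gestation), from which endothelial cells were sorted by FACS. In the tamoxifen group the pregnant females had received the drug by gavage at E12.5, and in the no tamoxifen group they had not. Embryos of both groups came from Cdh5-CreERT2(PAC);Rosa26fsTRAP mice, in which the endothelial gene Cdh5 drives a recombinase that tamoxifen activates, while the genotype field of each sample reads wild type. Drug and activated recombinase therefore cannot be told apart. The labels list 8 samples, 4 per group, and do not say whether they came from separate litters, so the spread behind each p-value may be technical only.

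Cells make cholesterol from acetyl-CoA through mevalonate, squalene and lanosterol, and the transcription factor SREBP-2 switches on nearly every enzyme of this route when membrane sterol is low. SREBP-1 does the same for fatty acid synthesis, and the LXR receptors answer to oxidised sterols by raising cholesterol export and lipid remodelling genes. Tamoxifen binds the sterol isomerase encoded by Ebp, and with it the reductase encoded by Dhcr7, in what is known as the antiestrogen binding site, so precursors of cholesterol can build up in treated cells. The comparison asks whether transcripts of this system differed in the sorted cells after the drug.

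The header of the table names 8 libraries over 9 columns of values, so the names can be set over the last 8 or the first 8. Counting the gene name as column 1, columns 7 to 9 carry a tamoxifen name and columns 3 to 5 a no tamoxifen name under both placements. These 6 libraries, 3 per group, were compared as tamoxifen_1 to tamoxifen_3 and no_tamoxifen_1 to no_tamoxifen_3, in table order, while columns 6 and 10 are described apart. The first column of values was not used. With the names over the first 8 it would be a no tamoxifen library, so fits under that placement lack 1 such library. Values are the authors' normalised reads per gene. The 6 libraries held 12212472 to 19908404 reads in genes, of which the ribosomal precursor Rn45s took 29.4% to 38.7%. All 12 endothelial markers examined were present, with a summed level of 22224, 22666 and 9265 normalised reads in tamoxifen_1, tamoxifen_2 and tamoxifen_3, against 13768 to 22027 without tamoxifen. The sum was thus lowest of the 6 in tamoxifen_3. All 12 macrophage markers were present too, with sums of 35182 to 57478 with tamoxifen and 46436 to 54580 without it, so a level in these sorts cannot be assigned to endothelial cells alone. The sum of 10 mesenchymal markers was high in a pair of tamoxifen libraries, 56326 for tamoxifen_1 and 87053 for tamoxifen_2. It was 4487 for tamoxifen_3 and lay between 2016 and 4328 where no tamoxifen was given.

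None of the 38 genes passed the test. With limma on log2(value + 1) and Benjamini-Hochberg adjustment over 13480 genes, 0 of 38 had an adjusted p under 0.05, where 0.0445% of all genes did. At an unadjusted p under 0.05, 1 gene was higher with tamoxifen and 3 were lower, where 4.89% of all genes were higher, 4.12% lower and 9.01% either. edgeR on recovered reads also called 0 of the 38, where it called 0.0371% of all genes. DESeq2 called 1, Mylip, where it called 2.04% of all genes. The groups did not overlap for 2 of the 38 genes, Mylip above and Nr1h3 below, where 13.9% of all genes did not overlap. The median log2 fold change was -0.02 over the 38 genes and -0.02 over all genes tested. For 35 of the 38, the 95% interval of the fold change lay within 2-fold in either direction. The exceptions were Apoe, Scd1 and Me1. Without tamoxifen_3, limma called 4 of the 38, Apoe and Abca1 lower and Mylip and Scd1 higher, in a fit that called 10.7% of all genes.

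**Figure D1:**
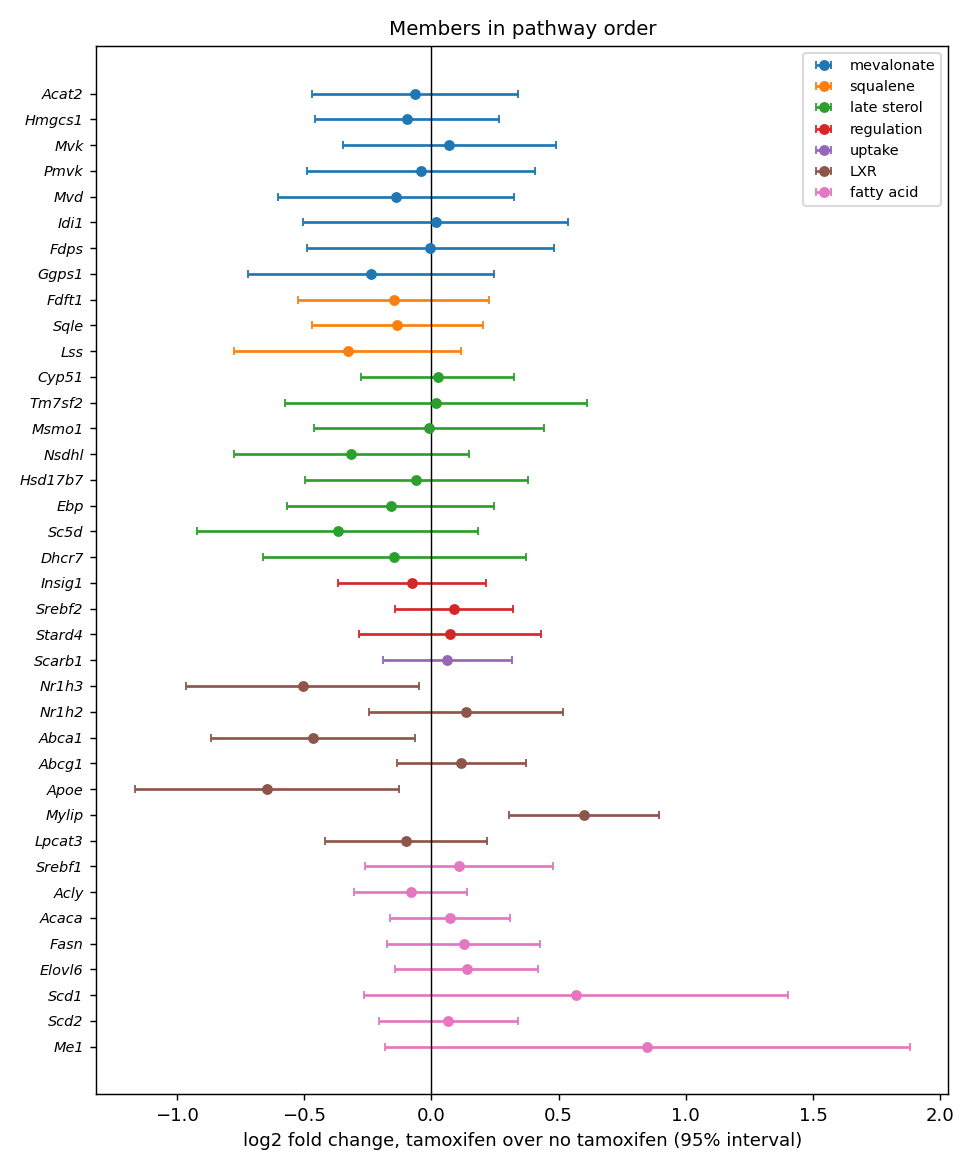
Log2 fold change of each of the 38 genes, tamoxifen over no tamoxifen, with its 95% interval from limma, 3 libraries per group, ordered by pathway step and coloured by role. The synthesis genes, from Acat2 to Dhcr7, all have intervals that cross 0, and the intervals that do not cross 0 belong to Nr1h3, Abca1, Apoe and Mylip.

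The first enzymes of the route, from the thiolase Acat2 to the prenyl synthases, did not pass the test in any of their 8 genes. Hmgcs1, which condenses acetyl-CoA units into HMG-CoA, had 656, 712 and 659 normalised reads with tamoxifen, against 776, 852 and 566 without it. The tamoxifen values lay inside the range of the others, and the log2 fold change was -0.09 ± 0.16 (SE, limma adjusted p = 0.886). Ggps1, which makes geranylgeranyl diphosphate for protein prenylation, had the lowest p of these genes. It stood at 138, 97.9 and 132 normalised reads with tamoxifen, against 125, 175 and 134 without it, and the groups overlapped (log2 fold change -0.24 ± 0.21, SE, limma adjusted p = 0.754). The kinases Mvk and Pmvk, the decarboxylase Mvd, the isomerase Idi1, the synthase Fdps and Acat2 had log2 fold changes between -0.14 and 0.07. Ggps1 shares exon sequence on the opposite strand with Arid4b and Hmgcs1 with the antisense gene Gm48342. Exon overlaps with another annotated gene also exist for Idi1, Fdps, Lss, Cyp51 (Akap9), Tm7sf2 (Vps51), Nr1h3 (Gm13783), Elovl6, Scd2 and Me1. Of the genes just named, Fdps, Tm7sf2, Nr1h3 and Scd2 overlap on the same strand and the others on the opposite strand. The sources used here do not give whether reads were counted by strand or how reads in same-strand overlaps were assigned. The values of all these genes are uncertain to that extent.

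Squalene and lanosterol formation, the step that commits the pathway to sterols, showed 3 negative and uncalled fold changes. Sqle, the squalene epoxidase and a slow step of the route, had 442, 463 and 360 normalised reads with tamoxifen, against 454, 522 and 410 without it. The groups overlapped, with a log2 fold change of -0.13 ± 0.15 (SE, limma adjusted p = 0.802). Lss, the cyclase that folds squalene epoxide into lanosterol, had 177, 143 and 194 normalised reads with tamoxifen, against 217, 257 and 174 without it. Its log2 fold change of -0.33 ± 0.20 (SE) did not pass (limma adjusted p = 0.629). Fdft1, the squalene synthase, averaged 366 ± 71.9 normalised reads with tamoxifen and 401 ± 37.1 without it (SD, n = 3 each), and its exons overlap the lysosomal protease gene Ctsb on the opposite strand.

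The 8 enzymes that turn lanosterol into cholesterol include those that bind tamoxifen, and 0 of 8 passed in limma, edgeR or DESeq2, with none at an unadjusted limma p under 0.05. Ebp, the sterol isomerase and main tamoxifen-binding member, had 201, 185 and 269 normalised reads in tamoxifen libraries, against 249, 216 and 260 in no tamoxifen libraries. The highest and the lowest of these 6 values were both tamoxifen libraries. The log2 fold change was -0.16 with a 95% interval of -0.57 to 0.25 (limma adjusted p = 0.804). Dhcr7, the reductase of the last step, had 303, 259 and 449 normalised reads with tamoxifen, against 414, 291 and 398 without it, and again spread most within the tamoxifen group (log2 fold change -0.15, interval -0.66 to 0.37, limma adjusted p = 0.874). Without tamoxifen_3, Ebp was at -0.32 and Dhcr7 at -0.37, neither past the threshold. With tamoxifen_3 as the only tamoxifen library they were at 0.16 and 0.31. The header placement over the last 8 columns gave 0.37 and 0.20. That over the first 8, fitted without the first column of values, gave -0.62 and -0.29.

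Sc5d, the desaturase between these enzymes, had 136, 90.3 and 173 normalised reads with tamoxifen, against 153, 180 and 167 without it. In tamoxifen_1 and tamoxifen_2 it lay below every library without tamoxifen, and in tamoxifen_3 it lay among them (log2 fold change -0.37 ± 0.24, SE, limma adjusted p = 0.658). Without tamoxifen_3 it was at -0.58, not past the threshold. It was at 0.05 with tamoxifen_3 as the only tamoxifen library. Nsdhl, a dehydrogenase that removes methyl groups from the sterol ring, had the lowest p of the late steps. Its values were 86.1, 91.2 and 118 normalised reads with tamoxifen, against 117, 140 and 109 without it (log2 fold change -0.31 ± 0.20, SE, limma adjusted p = 0.649). Cyp51, the demethylase that opens this stretch, averaged 461 ± 29.3 normalised reads with tamoxifen and 454 ± 54.2 without it (SD, n = 3 each). The remaining 3, Tm7sf2, Msmo1 and Hsd17b7, had log2 fold changes of 0.02, -0.01 and -0.06. Over the 19 enzymes from Acat2 to Dhcr7, 15 fold changes were negative, with a median of -0.09, where the median of all genes was -0.02 and 46.5% of all genes were positive. Every one of the 19 intervals lay within 2-fold. The median of the 19 was -0.17 without tamoxifen_3, 0.01 without no_tamoxifen_2 and between -0.12 and -0.06 without each of the others. It was 0.05 with tamoxifen_3 as the only tamoxifen library. Under the header placement over the last 8 columns it was -0.13, and over the first 8 it was -0.03.

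**Figure D2:**
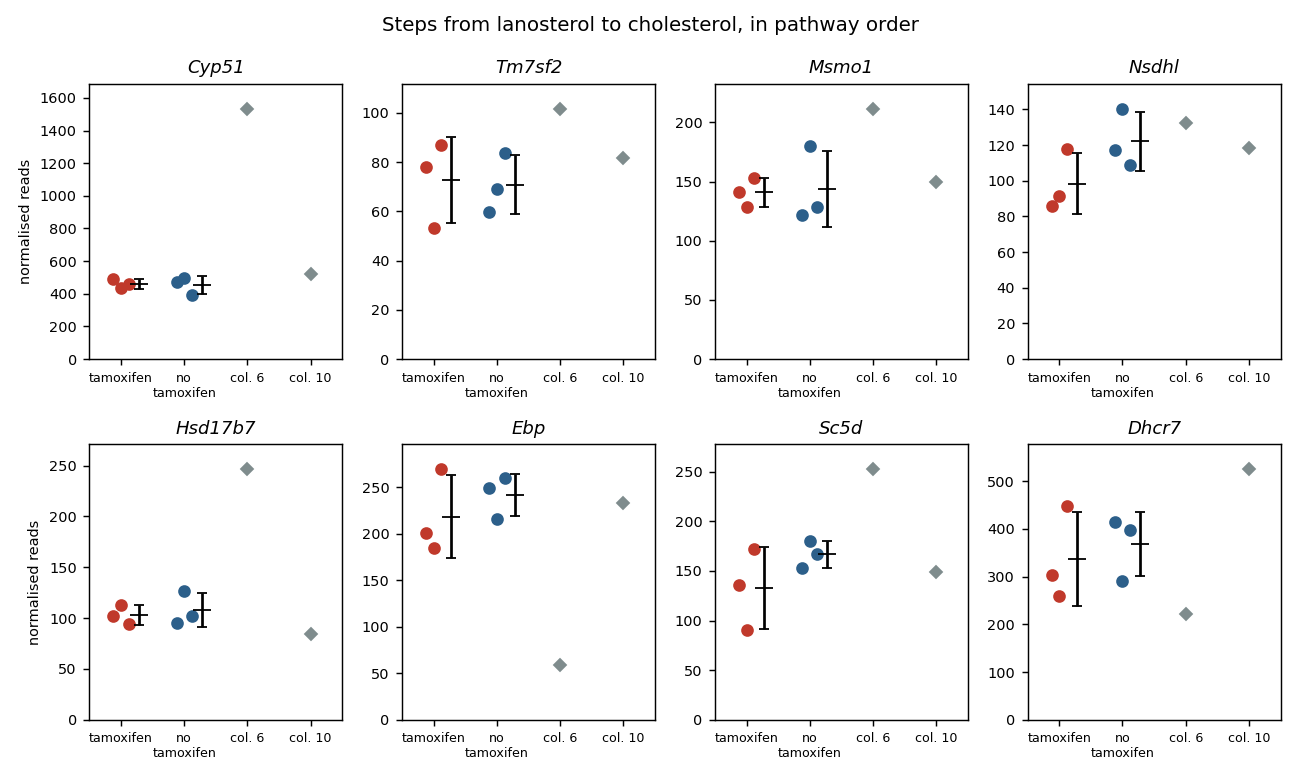
Normalised reads of the 8 enzymes from lanosterol to cholesterol in each library, tamoxifen in red and no tamoxifen in blue, with the mean and SD of 3 libraries beside the points and columns 6 and 10 as grey diamonds. Red and blue points overlap in each panel. Column 6 stands above the libraries of both groups for Cyp51, Tm7sf2, Msmo1, Hsd17b7 and Sc5d, and below them for Ebp and Dhcr7.

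Promoter windows of 300 bases, 250 before and 50 after the RefSeq start on GRCm38.p6, were found for 30 of the 38 genes, 39 windows in all. Both strands were searched. The sterol regulatory element of 10 bases was in 0 of these windows and 0.0913% of all 32851 windows. Its core TCACNCCAC, which overlaps it, was in 1 of 39, against 1.24% of all. The CCAAT box, known to bind NF-Y, a partner of SREBP, was in 24 of 39 windows, against 37.4% of all, and in at least 1 window of each of the 8 late-step genes. The E-box CACGTG was in 5 of 39, against 7.15% of all. The LXR direct repeat with 4 bases between its parts was in 0 of 39 and 0.0152% of all. These matches describe letters in a window and are not evidence of binding.

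Shown are 4 of these windows, 5′ to 3′ on the gene's strand. Hmgcs1 (plus strand, chr13:119690101-119690400) holds the one core element, Ebp (minus strand, chrX:8193463-8193762) encodes the tamoxifen-binding enzyme, Cyp51 (minus strand, chr5:4104648-4104947) was the synthesis gene highest in column 6 relative to the no tamoxifen mean, and Mylip (plus strand, chr13:45389492-45389791) had the lowest p of the 38. Capitals mark TCACNCCAC and CCAAT on either strand (ATTGG is CCAAT read from the other strand).
Hmgcs1: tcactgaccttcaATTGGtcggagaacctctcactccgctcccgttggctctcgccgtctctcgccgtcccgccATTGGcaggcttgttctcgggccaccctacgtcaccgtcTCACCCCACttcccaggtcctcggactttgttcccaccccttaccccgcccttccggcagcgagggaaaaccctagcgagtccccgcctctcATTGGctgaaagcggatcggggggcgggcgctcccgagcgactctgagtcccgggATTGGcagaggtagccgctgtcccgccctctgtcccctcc
Ebp: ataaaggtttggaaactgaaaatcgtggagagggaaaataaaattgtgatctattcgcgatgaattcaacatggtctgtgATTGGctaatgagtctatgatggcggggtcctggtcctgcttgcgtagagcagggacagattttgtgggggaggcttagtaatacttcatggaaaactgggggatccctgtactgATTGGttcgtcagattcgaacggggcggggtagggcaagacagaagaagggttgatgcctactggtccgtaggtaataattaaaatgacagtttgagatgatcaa
Cyp51: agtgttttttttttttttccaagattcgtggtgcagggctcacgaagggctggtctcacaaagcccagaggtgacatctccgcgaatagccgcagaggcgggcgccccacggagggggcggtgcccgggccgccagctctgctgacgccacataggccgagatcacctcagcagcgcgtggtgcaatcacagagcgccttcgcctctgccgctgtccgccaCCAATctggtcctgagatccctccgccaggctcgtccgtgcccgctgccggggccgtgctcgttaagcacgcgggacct
Mylip: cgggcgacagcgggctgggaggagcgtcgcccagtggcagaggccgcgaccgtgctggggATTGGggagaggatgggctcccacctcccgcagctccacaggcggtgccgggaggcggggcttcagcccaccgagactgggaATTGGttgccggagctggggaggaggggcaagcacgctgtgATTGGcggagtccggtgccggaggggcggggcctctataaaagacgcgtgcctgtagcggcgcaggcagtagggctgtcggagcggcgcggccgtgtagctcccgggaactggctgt

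Genes that sense sterol and control the pathway also did not pass. Srebf2, which encodes SREBP-2, had 2072, 2008 and 2158 normalised reads with tamoxifen, against 1839, 1882 and 2149 without it. The log2 fold change was 0.09 with a 95% interval of -0.14 to 0.32 (limma adjusted p = 0.806). Insig1, an SREBP target whose product holds the SREBP escort complex in the endoplasmic reticulum, had 655, 788 and 868 normalised reads with tamoxifen, against 770, 808 and 840 without it. The 3 no tamoxifen values fell within the tamoxifen range (log2 fold change -0.08, interval -0.37 to 0.22, limma adjusted p = 0.889). Stard4, a cytosolic sterol carrier, had 419, 427 and 509 normalised reads with tamoxifen, against 494, 448 and 353 without it. Scarb1, the receptor for high-density lipoprotein, had 1365, 1283 and 1277 normalised reads with tamoxifen, against 1154, 1197 and 1418 without it (log2 fold change 0.06 ± 0.11, SE, limma adjusted p = 0.892).

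The LXR group of 7 held all 4 genes with an unadjusted limma p under 0.05, where 9.01% of all genes had one. None of the 4 passed after adjustment in limma. Mylip, a ubiquitin ligase that LXR induces and that sends lipoprotein receptors to degradation, had the lowest p of the 38 genes. The gene lies at chr13:45389742-45412022 on the plus strand of GRCm38. It stood at 796, 842 and 947 normalised reads with tamoxifen, against 625, 494 and 588 without it. Every tamoxifen library lay above every library without tamoxifen, as for 6.24% of all genes tested. The fold change was 1.52 with a 95% interval of 1.24 to 1.86. On the log2 scale it was 0.60 ± 0.13 (SE, limma adjusted p = 0.348), and DESeq2 on recovered reads called it (adjusted p = 0.00612). Leaving out 1 library at a time gave log2 fold changes of 0.50 to 0.67, past the threshold only without tamoxifen_3 (limma adjusted p = 0.0208, and 0.429 to 0.993 without each of the others). With tamoxifen_3 as the only tamoxifen library it was 0.74 (limma adjusted p = 0.0957).

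Apoe (chr7:19696109-19699188, minus strand), the apolipoprotein that carries cholesterol out of macrophages and many other cells, had 9040, 10279 and 17108 normalised reads with tamoxifen, against 17635, 20362 and 16953 without it. It was low in tamoxifen_1 and tamoxifen_2, while tamoxifen_3 lay inside the range without tamoxifen. The log2 fold change was -0.65 ± 0.23 (SE, limma adjusted p = 0.475). Abca1 (chr4:53030787-53159895, minus strand), the transporter that loads cholesterol onto apolipoproteins, followed the same libraries, with 5893, 6137 and 9100 normalised reads with tamoxifen, against 10505, 8671 and 9511 without it (log2 fold change -0.47 ± 0.18, SE, limma adjusted p = 0.505). Without tamoxifen_3 both passed, Apoe at -0.92 (limma adjusted p = 0.000257) and Abca1 at -0.66 (limma adjusted p = 0.00211). With tamoxifen_3 as the only tamoxifen library they were at -0.09 and -0.07. Under the header placement over the last 8 columns, which puts column 6 among the no tamoxifen libraries, the values turned to 0.77 for Apoe and 0.33 for Abca1. Under that over the first 8, which puts column 6 among the tamoxifen libraries, they were -1.79 and -1.10.

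Nr1h3 (chr2:91184061-91202834, minus strand), the LXR gene known for its high level in macrophages, had 69.7, 74.1 and 96.1 normalised reads with tamoxifen, against 104, 118 and 117 without it. Every tamoxifen library lay below every library without tamoxifen, as for 7.62% of all genes (log2 fold change -0.51 ± 0.20, SE, limma adjusted p = 0.518). With the names over the last 8 columns it was at 0.36, and with them over the first 8 at -1.29. Macrophage markers were also lowest in tamoxifen_1 and tamoxifen_2. Their sum was 37348, 35182 and 57478 normalised reads in the tamoxifen libraries, against 54580, 46436 and 50851 without tamoxifen, and 0 of 12 were separated between the groups. All 12 were lower in column 6 than in every library without tamoxifen, and Apoe, Abca1 and Nr1h3 were at 484, 1194 and 8.14 there. The mesenchymal markers had their high sums in tamoxifen_1 and tamoxifen_2, with 4 of 10 higher in every tamoxifen library, where 6.24% of all genes were. Other lists were high in the same libraries. Cartilage markers summed to 16919 in tamoxifen_1, 14607 in tamoxifen_2 and 696 in tamoxifen_3, against 524 to 743 without tamoxifen. Erythroid markers summed to 1077, 1356 and 150.1 with tamoxifen, against 129 to 180 without it, and mural markers to 2241, 2402 and 781 with tamoxifen, against 673 to 1059 without it. The part of any marker list in the result was not tested, and fewer cells of a type and less RNA per cell cannot be told apart in these bulk samples. Liver also makes Apoe, and the 8 hepatocyte markers summed to 2416 to 2869 normalised reads with tamoxifen and 2700 to 3038 without it. Of the 8, 2 were higher in every tamoxifen library, Apoa2 and Apob, where 6.24% of all genes were, and 0 were lower in every one. Both were at few reads. Apoa2 stood at 9.82 to 12.3 normalised reads with tamoxifen and 5.21 to 8.37 without it. Apob stood at 5.61 to 22.5 with tamoxifen and 3.24 to 5.33 without it. Most of the sum was Trf, at 2190 to 2745 with tamoxifen and 2599 to 2924 without it. The defining marker Alb was at 3.51 to 90.3 with tamoxifen and 6.48 to 25.2 without it.

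The other 3 LXR genes overlapped between the groups. Abcg1, which exports cholesterol to high-density lipoprotein, had 1319, 1261 and 1262 normalised reads with tamoxifen, against 1109, 1103 and 1340 without it (log2 fold change 0.12 ± 0.11, SE, limma adjusted p = 0.764). Nr1h2, the broadly expressed LXR gene, averaged 806 ± 143 normalised reads with tamoxifen and 730.0 ± 109 without it, and the phospholipid remodelling enzyme Lpcat3 averaged 731 ± 115 with tamoxifen and 780 ± 73.0 without it (SD, n = 3 each). The exons of Lpcat3 overlap Emg1 on the opposite strand.

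**Figure D3:**
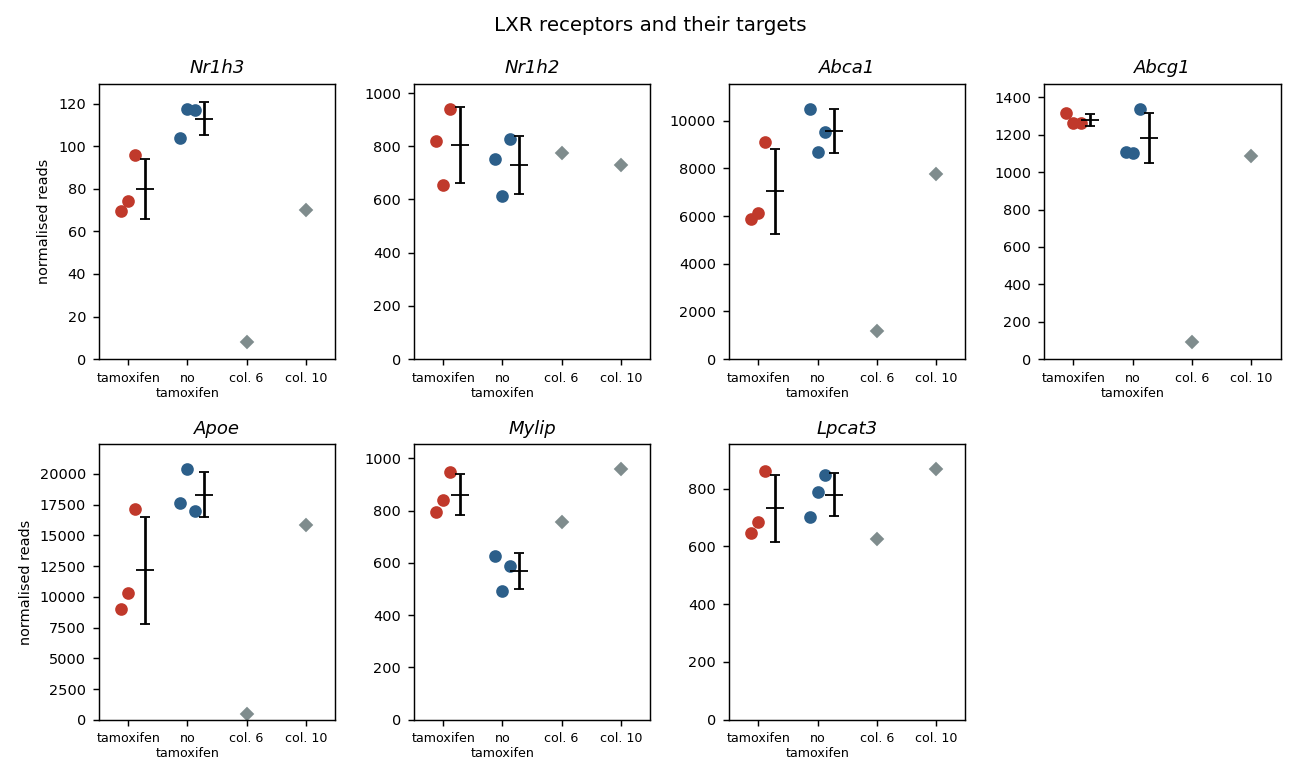
Normalised reads of the 7 LXR genes in each library, tamoxifen in red and no tamoxifen in blue, with the mean and SD of 3 libraries beside the points and columns 6 and 10 as grey diamonds. Mylip separates the groups upwards, Nr1h3 downwards, and for Abca1 and Apoe only tamoxifen_3, the highest red point, reaches the blue ones.

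**Figure D4:**
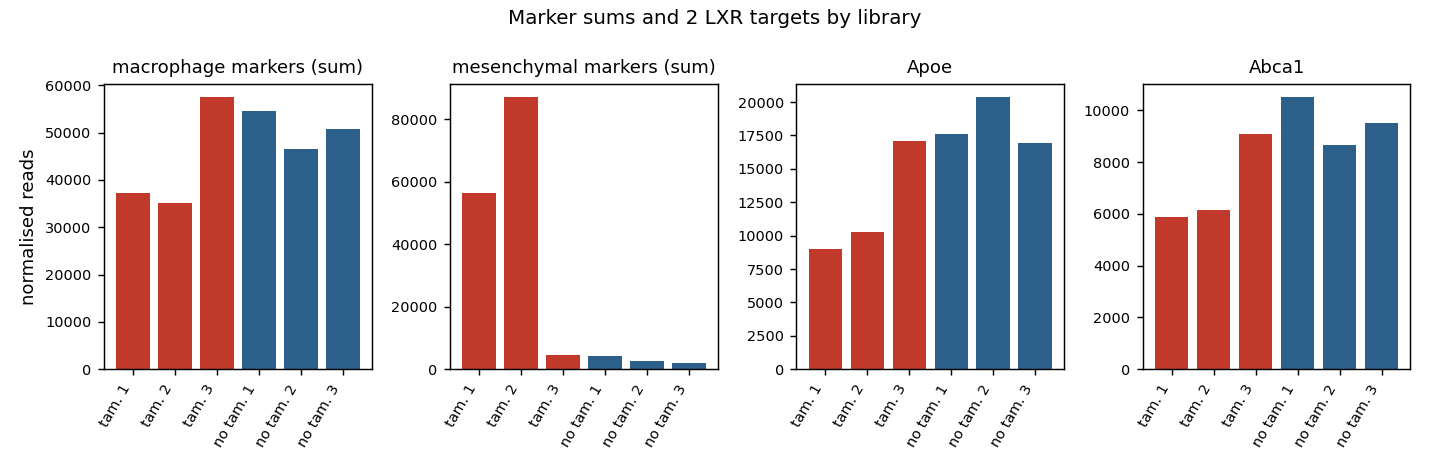
Summed normalised reads of 12 macrophage and 10 mesenchymal markers beside Apoe and Abca1, one bar per library, tamoxifen in red and no tamoxifen in blue. In tamoxifen_1 and tamoxifen_2 the macrophage sum, Apoe and Abca1 are low and the mesenchymal sum is high, which is not so in tamoxifen_3.

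In fatty acid synthesis 7 of 8 fold changes were positive and 0 passed in limma, edgeR or DESeq2, with none at an unadjusted limma p under 0.05. For Fasn and Acaca the means differed by less than the SD within the no tamoxifen group. Fasn, the fatty acid synthase, averaged 4644 ± 419 normalised reads with tamoxifen and 4270 ± 642 without it, and the carboxylase Acaca 1294 ± 61.7 with tamoxifen and 1231 ± 93.6 without it (SD, n = 3 each). Acly, which supplies cytosolic acetyl-CoA, was the one with a negative value, at -0.08 ± 0.10 (SE, log2 fold change). Srebf1, which encodes SREBP-1 and is itself an LXR target, averaged 1564 ± 243 normalised reads with tamoxifen and 1455 ± 275 without it (SD, n = 3 each), and its exons overlap Rai1 on the opposite strand. The elongase Elovl6 was at 0.14 ± 0.12 (SE, log2 fold change).

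The desaturase genes Scd1 and Scd2 are close paralogs, and how reads were divided between them is uncertain. Scd2 had 5868, 5942 and 6726 normalised reads with tamoxifen, against 5216, 6036 and 6473 without it (log2 fold change 0.07 ± 0.12, SE, limma adjusted p = 0.893). Scd1, far lower per kilobase of exon, had 71.7, 67.5 and 30.2 normalised reads with tamoxifen, against 38.2, 36.7 and 31.2 without it. It was high in tamoxifen_1 and tamoxifen_2, and tamoxifen_3 held the lowest value of the 6 (log2 fold change 0.57 ± 0.36, SE, limma adjusted p = 0.649). The malic enzyme Me1, a source of NADPH, had 46.1, 34.2 and 18.9 normalised reads with tamoxifen, against 26.0, 14 and 12.9 without it (log2 fold change 0.85 ± 0.45, SE, limma adjusted p = 0.599). Scd1 passed without tamoxifen_3 (log2 fold change 0.96, limma adjusted p = 0.0482) and was at -0.22 with tamoxifen_3 as the only tamoxifen library. With the names over the last 8 columns, Scd1 was at -0.49 and Me1 at -0.16. With them over the first 8, Scd1 was at 1.22 and Me1 at 1.47. Mesenchymal markers were high in tamoxifen_1 and tamoxifen_2 as well, and their part was not tested.

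Per kilobase of exon in GENCODE M21, levels spanned a wide range. Apoe led with 5679 normalised reads per kb with tamoxifen and 8567 without it, followed by Scd2 at 1131 with tamoxifen and 1081 without it and Abca1 at 680 with tamoxifen and 923 without it. Acly stood at 627 with tamoxifen and 663 without it, and Fasn at 424 with tamoxifen and 390.1 without it. Among synthesis enzymes Hmgcs1 was highest, at 147 per kb with tamoxifen and 159 without it. Fdps (110 per kb with tamoxifen and 111 without it), Cyp51 (104 with and 103 without) and Ebp (94.6 with and 105 without) came next, and the order among these neighbours was not tested. Scd1 and Me1 were lowest, at 11.5 and 8.60 per kb with tamoxifen and 7.23 and 4.59 without it.

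Of 51 further genes of sterol and fatty acid metabolism in the table, 43 passed the filter of a mean of at least 10 normalised reads. In limma 0 of 43 passed, as in edgeR and DESeq2, and at an unadjusted p under 0.05, 2 were higher and 7 lower, where 4.89% of all genes were higher and 4.12% lower. Their median log2 fold change was -0.07, where that of all genes was -0.02. The 7 tested of them that are further LXR targets held 0 genes at an unadjusted limma p under 0.05. Of those with positive fold changes and low p, Elovl5, an elongase of polyunsaturated fatty acids, had 1426, 1437 and 1913 normalised reads with tamoxifen, against 1141, 1265 and 1191 without it (log2 fold change 0.40 ± 0.13, SE, limma adjusted p = 0.475). The lipoprotein receptor Vldlr (1.30 ± 0.61, SE) and the desaturase Fads2 (0.27 ± 0.16) were also positive on the log2 scale. Of those with negative values, Cd36, a fatty acid and oxidised lipoprotein receptor, had 735, 541 and 746 normalised reads with tamoxifen, against 1066, 959 and 817 without it (log2 fold change -0.50 ± 0.16, SE, limma adjusted p = 0.474). Npc1, which moves cholesterol out of lysosomes, had 776, 752 and 915 normalised reads with tamoxifen, against 1039, 973 and 1043 without it (log2 fold change -0.33 ± 0.11, SE, limma adjusted p = 0.475). The lipogenic regulator Mid1ip1 (log2 fold change -0.37 ± 0.15, SE) was negative too, and in Cd36, Npc1 and Mid1ip1 the groups did not overlap. Over the 43, 9 did not overlap, 2 above and 7 below, where 13.9% of all genes did not, 6.24% above and 7.62% below. Without tamoxifen_3, 6 of the 43 passed, 1 higher and 5 lower, in the fit that called 10.7% of all genes. Vldlr was then at 1.95 (limma adjusted p = 0.00748), and at 0.00 with tamoxifen_3 as the only tamoxifen library.

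Columns 6 and 10 have no sure group. Column 6 would be a no tamoxifen library with the names over the last 8 columns and a tamoxifen library with them over the first 8, and column 10 would be a tamoxifen library or have no name. Column 6 stood apart in its markers, with 450099 normalised reads of mesenchymal markers, 606 of macrophage and 4060 of endothelial markers, and in depth, with 8695745 reads in genes. Among the 38 genes, 4 were over 2 times the highest library without tamoxifen there, where 18.0% of all genes were, and 6 were at less than 50% of the lowest, where 21.5% were. Cyp51 was at 1534 normalised reads, Sqle at 1170 and Srebf2 at 4174, which is 3.38, 2.53 and 2.13 times the mean without tamoxifen. Ebp was at 59.0, or 0.244 times that mean, and Dhcr7 at 222. Enzymes of the same pathway stood on both sides of the no tamoxifen level in that column. In column 10, the 38 genes were at 0.621 to 1.68 times the mean without tamoxifen, the highest ratio for Mylip, at 958 normalised reads, and the lowest for Nr1h3, at 70.2. Apoe was at 15879 there, Abca1 at 7772, Ebp at 233 and Dhcr7 at 525.

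**Figure D5:**
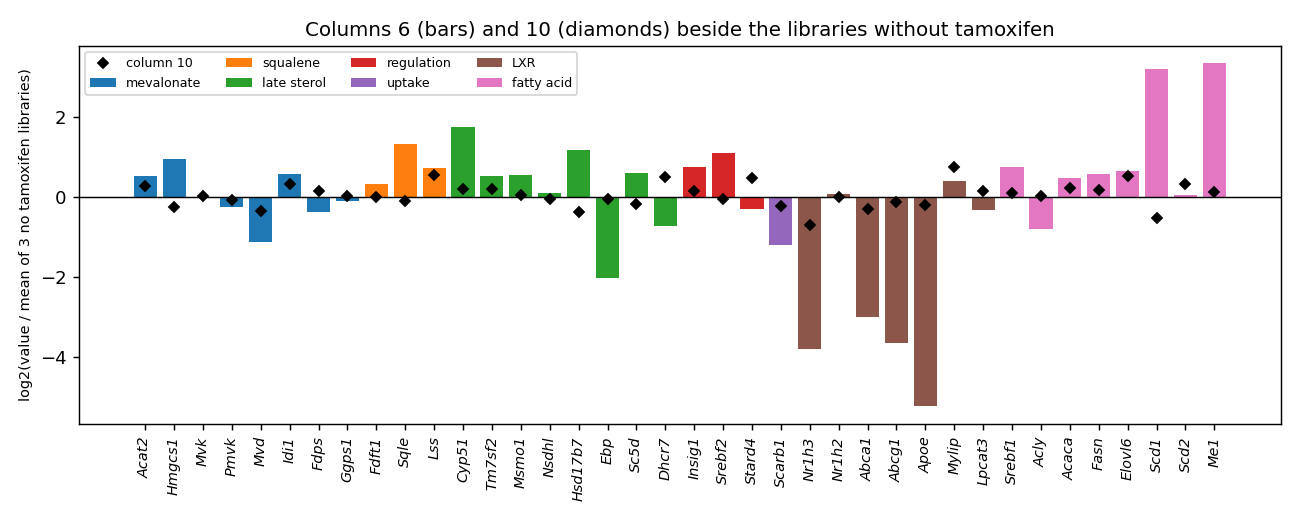
Log2 of the value in column 6 (bars, coloured by role) and in column 10 (diamonds) over the mean of the 3 no tamoxifen libraries, for the 38 genes in pathway order. Bars for Scd1, Me1 and Cyp51 reach highest, those for Apoe, Nr1h3, Abcg1 and Abca1 lowest, and among the diamonds Mylip is highest and Nr1h3 lowest. The diamond lies further from 0 than the bar for Mylip, Stard4, Scd2 and Mvk.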

How the data were processed

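Total RNA of the sorted cells was depleted of ribosomal RNA before library preparation, per the labels' protocols. The deposited signal values are normalised read counts, each library divided by 1 size factor by the authors. STAR, HTSeq 0.11.2 and DESeq2, and the builds hg38 and mm10, are listed in the submitters' processing notes without role or order, and the sources used here do not give the annotation. Every value was a whole multiple of 1 step per library within 0.001 reads, so whole reads (100% of values) were recovered for edgeR 4.0.16 and DESeq2 1.42.0, used as alternatives.

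Genes were tested on log2(value + 1) by limma (version 3.58.1, under R 4.3.3) with a mean trend, for 13480 genes with a mean of at least 10 over the 6 libraries. All 38 genes passed that filter. Adjustment was Benjamini-Hochberg over all genes tested, at 0.05. The fold change on this scale understates the change of low genes. The fit was tested on simulated data first. Gene positions and exon lengths are from GENCODE M21, promoters from RefSeq. Of 9 columns of values 1, the first, was not used. The names over the first 8 columns would make it a no tamoxifen library, and that alternative was fitted without it. Alternatives were other pseudocounts and filters, edgeR, DESeq2, a replicate block, leaving out each library, and both placements of the header.

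The 38 genes and the other lists were chosen with earlier results of these data known. Values per library are given for genes whose groups do not overlap, for the gene of lowest p in each role, and for Ebp, Dhcr7, Sc5d, Sqle, Hmgcs1, Insig1, Srebf2, Abca1, Abcg1, Apoe, Scd1 and Scd2. The further pathway genes named are the 4 with the lowest p on either side, and 2 genes that this rule gives are not reported here.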

Additional observations from a re-analysis of the deposited data

Results flagged for a closer look

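Column 6 of the table, which entered no comparison because its group is not sure, held 4 of the 38 genes at over 2 times the highest library without tamoxifen. Cyp51 was at 1534 normalised reads there, against a highest value of 497 without tamoxifen. Sqle was at 1170, against 522. Scd1 was at 325, against 38.2, and Me1 at 181, against 26.0. Over all genes tested, 18.0% exceeded 2 times the highest library without tamoxifen in that column, and its mesenchymal markers summed to 450099 normalised reads, against 2016 to 4328 without tamoxifen. Their part in these values was not tested.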

How the results depend on the processing

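Over all genes, limma called 6, against 275 with DESeq2, 0 with the header names over the first 8 columns, and 2 to 1442 when 1 library was left out, the highest without tamoxifen_3. With tamoxifen_3 as the only tamoxifen library, an alternative chosen after seeing the data, it called 91; that lone library is assumed to vary like the others. Of the 38 genes, DESeq2 called 1 and the fits without 1 library called 0 to 4. Of the further pathway genes, those fits called 0 to 6. The cause was not tested.

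The median log2 fold change of the 38 genes was 0.11 with tamoxifen_3 as the only tamoxifen library, and -0.07 to 0.03 when 1 library was left out. Only 6 of the 38 genes kept 1 sign in all 17 alternatives. Of the 38, 19 changed sign with the names over the last 8 columns and 9 with them over the first 8. The replicate block called 21 genes and 0 of the 38 (Mylip adjusted p = 0.117 in limma). Deviations of same-numbered libraries correlated at 0.195, 0.0364 and 0.345, the last being the highest of all pairs. For tamoxifen_2 the best partner was no_tamoxifen_1 (0.329). These values cannot decide whether equal numbers mark a shared litter or batch, since deviations within 3 libraries are tied to one another. The labels give only the number. With 3 libraries per group, small differences were not detectable.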
